A study of Homo sapiens with 12 samples.

Results

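The 10 genes described here encode the core of the NF-κB pathway: 5 subunits of the transcription factor (NFKB1, NFKB2, RELA, RELB and REL), 3 inhibitors (NFKBIA, NFKBIB and NFKBIE) and 2 kinases (CHUK and IKBKB). They were chosen by name from the 58735 genes of the table because the study places NF-κB signaling downstream of 77-39, and all 10 were found, each in a single row. RNA sequencing was performed on 12 libraries of cultured human cells, 3 in each of 4 groups. The groups were untreated libraries labelled KGN, libraries labelled KGN and treated with 77-39, an inhibitor of the mitochondrial deacetylase SIRT3, for 72 h, and the same pair labelled COV434. Both lines are given as ovarian granulosa cell tumor lines with the genotype WT, the study describes KGN as adult-type and COV434 as juvenile-type, and the labels leave the unit of the dose unclear. The treatment field names 77-39 for every library, controls included, so that untreated here rests on the word control in the titles. Each line is 1 cell line, and nothing in the labels says whether the 3 libraries of a group came from separate cultures, so p-values measure the spread between these libraries only.

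NF-κB acts as dimers of the subunits. In resting cells the IκB inhibitors hold the dimers in the cytoplasm, and after a signal such as TNF or IL-1 the IκB kinase phosphorylates the inhibitor, which is then degraded, so that dimers reach the nucleus. This canonical arm works mainly through RELA and p50, the product of NFKB1, and through the kinase encoded by IKBKB, whereas the non-canonical arm uses the kinase encoded by CHUK to process the NFKB2 precursor to p52, the partner of RELB. NFKBIA, NFKBIE, NFKB1, NFKB2, RELB and REL are themselves known transcriptional targets of NF-κB, and much of the control of the pathway is at the level of protein phosphorylation, degradation and location, which RNA levels do not measure.

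The feedback of NF-κB on its own genes is the reason to show their promoters. RefSeq promoter windows of the build GRCh38.p14, from 250 bases before to 50 bases after a transcript start, were at hand for 7 of the 10 genes in 12 windows, namely NFKB1, NFKB2, RELA, REL, NFKBIA, NFKBIB and CHUK. The κB consensus was searched on both strands as GGG, a purine, 2 bases of any kind, 2 pyrimidines and CC. It was found in 6 of the 12 windows, in 5 of the 7 genes, against 11.3% of all 35116 windows in the table. The windows of NFKB2 and NFKBIA are shown because these genes differed most between the lines, and those of NFKB1 and REL because they belong to the same feedback. Each runs 5′ to 3′ along the gene's strand, and capitals mark the κB consensus on either strand, where matches that overlap form 1 run. The runs start at -107 and -78 from the transcript start in NFKB2, on the plus strand at chr10:102394328-102394627, at -81 in NFKBIA, on the minus strand at chr14:35404700-35404999, at -49 in NFKB1, on the plus strand at chr4:102501109-102501408, and at -47 in REL, on the plus strand at chr2:60881324-60881623.
NFKB2: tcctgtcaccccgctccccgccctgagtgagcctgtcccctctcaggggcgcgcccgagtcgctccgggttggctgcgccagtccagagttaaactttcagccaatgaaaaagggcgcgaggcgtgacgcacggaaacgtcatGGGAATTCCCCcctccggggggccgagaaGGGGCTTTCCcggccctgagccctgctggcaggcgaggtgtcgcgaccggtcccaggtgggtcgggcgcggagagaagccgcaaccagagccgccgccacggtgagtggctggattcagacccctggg
NFKBIA: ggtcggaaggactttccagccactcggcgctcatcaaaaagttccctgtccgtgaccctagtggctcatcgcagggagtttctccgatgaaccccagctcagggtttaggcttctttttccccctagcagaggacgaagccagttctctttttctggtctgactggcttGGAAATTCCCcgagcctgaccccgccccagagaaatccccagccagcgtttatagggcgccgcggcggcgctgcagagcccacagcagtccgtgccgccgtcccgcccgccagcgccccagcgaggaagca
NFKB1: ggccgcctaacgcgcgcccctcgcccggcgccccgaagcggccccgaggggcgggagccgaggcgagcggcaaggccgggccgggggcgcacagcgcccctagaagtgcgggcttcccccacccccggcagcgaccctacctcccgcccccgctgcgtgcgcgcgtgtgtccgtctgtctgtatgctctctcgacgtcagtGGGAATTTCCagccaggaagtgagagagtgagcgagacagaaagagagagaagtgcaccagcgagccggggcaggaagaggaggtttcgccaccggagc
REL: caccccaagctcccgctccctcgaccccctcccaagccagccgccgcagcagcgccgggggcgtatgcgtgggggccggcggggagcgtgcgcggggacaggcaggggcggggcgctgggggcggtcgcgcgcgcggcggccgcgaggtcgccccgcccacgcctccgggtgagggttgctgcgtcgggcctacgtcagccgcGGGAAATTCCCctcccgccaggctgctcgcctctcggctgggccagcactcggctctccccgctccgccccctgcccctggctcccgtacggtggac
The windows of CHUK and RELA held no match. Neither did those of NFKB1 at chr4:102501684-102501983, NFKB2 at chr10:102393860-102394159 and NFKBIB at chr19:38899416-38899715. The windows of NFKB2 at chr10:102395455-102395754 and of NFKBIB at chr19:38899719-38900018 held further matches. A match describes these letters only.

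Recovered reads per library ranged from 15547851 to 18280415, and every value of the 12 libraries came out as whole reads within 0.05. The share of reads from mitochondrially encoded genes was 7.3% to 8.81% for KGN and 7.71% to 13.51% for COV434, where treated library 1 had the most. Replicates were closer in KGN, with a chi-square of 2.36 to 8.36 per gene between pairs, than in COV434, with 15.58 to 89.88, where library 1 of each group stood apart from the other 2. Several defining markers went against the labels, and others were low in both lines. FOXL2, the transcription factor that marks granulosa cells, had 2 reads over the 6 libraries labelled KGN and 3769 over the 6 labelled COV434. SMARCA2, a chromatin remodeling ATPase whose loss is known for COV434, had 13 reads against 9860, and SMARCA4, the related ATPase also lost in COV434, was at 2.25 to 2.60 against 6.51 to 12.6 FPKM. Of the other 9 granulosa markers, INHBB with 12 against 2332 reads, INHA with 181 against 732, AMH with 1243 against 1877 and AMHR2 with 0 against 11 had more reads in COV434. INHBA with 95 against 6, CYP19A1 with 95 against 64, STAR with 7 against 1 and NR5A1 with 1 against 0 had more in KGN, and FSHR had 0 in every library. The study counts more changed genes in COV434 than in KGN after treatment, at a p under 0.05. Here the order was reversed. At an unadjusted p under 0.05 in limma, the test used below, 5743 of 12671 genes passed in the libraries labelled KGN. In those labelled COV434, 965 of 12060 passed. The reason was not tested. KGN and COV434 below stand for the libraries that carry those labels. Each direction between the lines, and each treatment result given for a line, rests on the labels. Of 3 leukocyte markers, CD3E was at 0 reads in all libraries and LYZ had 4 reads over the libraries labelled KGN, where PTPRC was at 0.188 to 0.249 FPKM untreated and 0.313 to 0.378 FPKM treated. Summed over the 3, these markers were at 0.241 to 0.249 FPKM untreated and 0.344 to 0.412 FPKM treated in KGN, and their part in the results was not tested. Of 2 endothelial markers, the sum was 1.64 to 2.39 FPKM in untreated and 0.364 to 0.660 FPKM in treated libraries labelled COV434, mostly CDH5, and its part was not tested either. Fibroblast markers COL1A1 and DCN summed to 17.0 to 21.7 FPKM in COV434 and 2.15 to 2.46 FPKM in KGN, and epithelial markers EPCAM, KRT5 and CDH1 to at most 0.440 FPKM in any library. In such bulk samples, fewer cells of a type and less RNA per cell cannot be told apart.

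The first question was how the NF-κB genes differed between the untreated lines, which sets the levels that 77-39 acted on. NFKB2, RELB, RELA, NFKBIA and NFKBIE were higher in the libraries labelled COV434 and CHUK, IKBKB and NFKB1 were lower, so that 8 of the 9 members tested passed an adjusted p of 0.05. Over all 13098 genes tested, 69% passed. The comparison was fitted with limma on log2(FPKM + 1), as all that follow, with Benjamini-Hochberg adjustment over all genes whose mean reached 1 FPKM. REL lay below that mean in every comparison and was fitted only with the minimum lowered to 0.1. Medians of the members and of all genes were 0.37 and 0.02 on the log2 scale.

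NFKB2, the precursor of p52 on chromosome 10 (102394110 to 102402529, plus strand), was at 8.34, 8.72 and 8.0 FPKM in untreated KGN libraries and at 30.4, 26.0 and 28.0 FPKM in untreated COV434 libraries. No COV434 library came near the KGN range. The difference was 1.64 on the log2 scale (SE 0.09, adjusted p = 6.43e-06), with means of 8.35 ± 0.360 and 28.1 ± 2.17 FPKM (SD, n = 3), a ratio of 3.37. It passed in all 15 alternatives, between 1.35 and 1.74.

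RELB, the subunit that pairs with p52, was at 2.52, 3.12 and 3.45 FPKM in KGN and at 5.39, 5.56 and 4.29 FPKM in COV434. The groups did not overlap, and the difference was 0.59 (SE 0.13, adjusted p = 0.00560). RELA, the p65 subunit that activates transcription in the canonical arm, was at 12.8, 14.3 and 14.4 FPKM against 19.6, 16.7 and 18.4 FPKM. All 3 COV434 libraries were higher, by 0.37 (SE 0.10, adjusted p = 0.0125), but the call was lost with quantile normalization (0.06, adjusted p = 0.603), with voom on the recovered reads (0.19, adjusted p = 0.118) and with library numbers as a replicate block (adjusted p = 0.0502), and the adjusted p over all alternatives ran from 0.00234 to 0.603. The median over all genes moved from 0.02 to -0.18 with voom and to -0.09 with quantile normalization.

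NFKB1, the precursor of p50, went the other way. It was at 8.90, 9.62 and 9.88 FPKM in KGN and 8.66, 6.36 and 6.68 FPKM in COV434, where library 1 was closest to the KGN libraries. The difference was -0.36 (SE 0.12, adjusted p = 0.0366), and it passed in 8 of 15 alternatives. Without COV434 library 1 it was -0.48 (adjusted p = 0.00121), and leaving out any of the other 5 libraries ended the call, with adjusted p from 0.0671 without KGN library 1 to 0.119 without KGN library 3. REL, the c-Rel subunit best known in lymphoid cells, was low in both lines, at 0.471 to 0.536 FPKM in KGN and 0.465 to 0.797 FPKM in COV434. These groups overlapped, with 104 to 174 recovered reads per library and a difference of 0.07 (SE 0.10, adjusted p = 0.5998 at the lower minimum). Its gene model shares 43.3% of its exonic bases with the gene AC010733.2 on the same strand, which was listed at 0 in every library, so how reads were split there is uncertain.

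**Figure D1:**
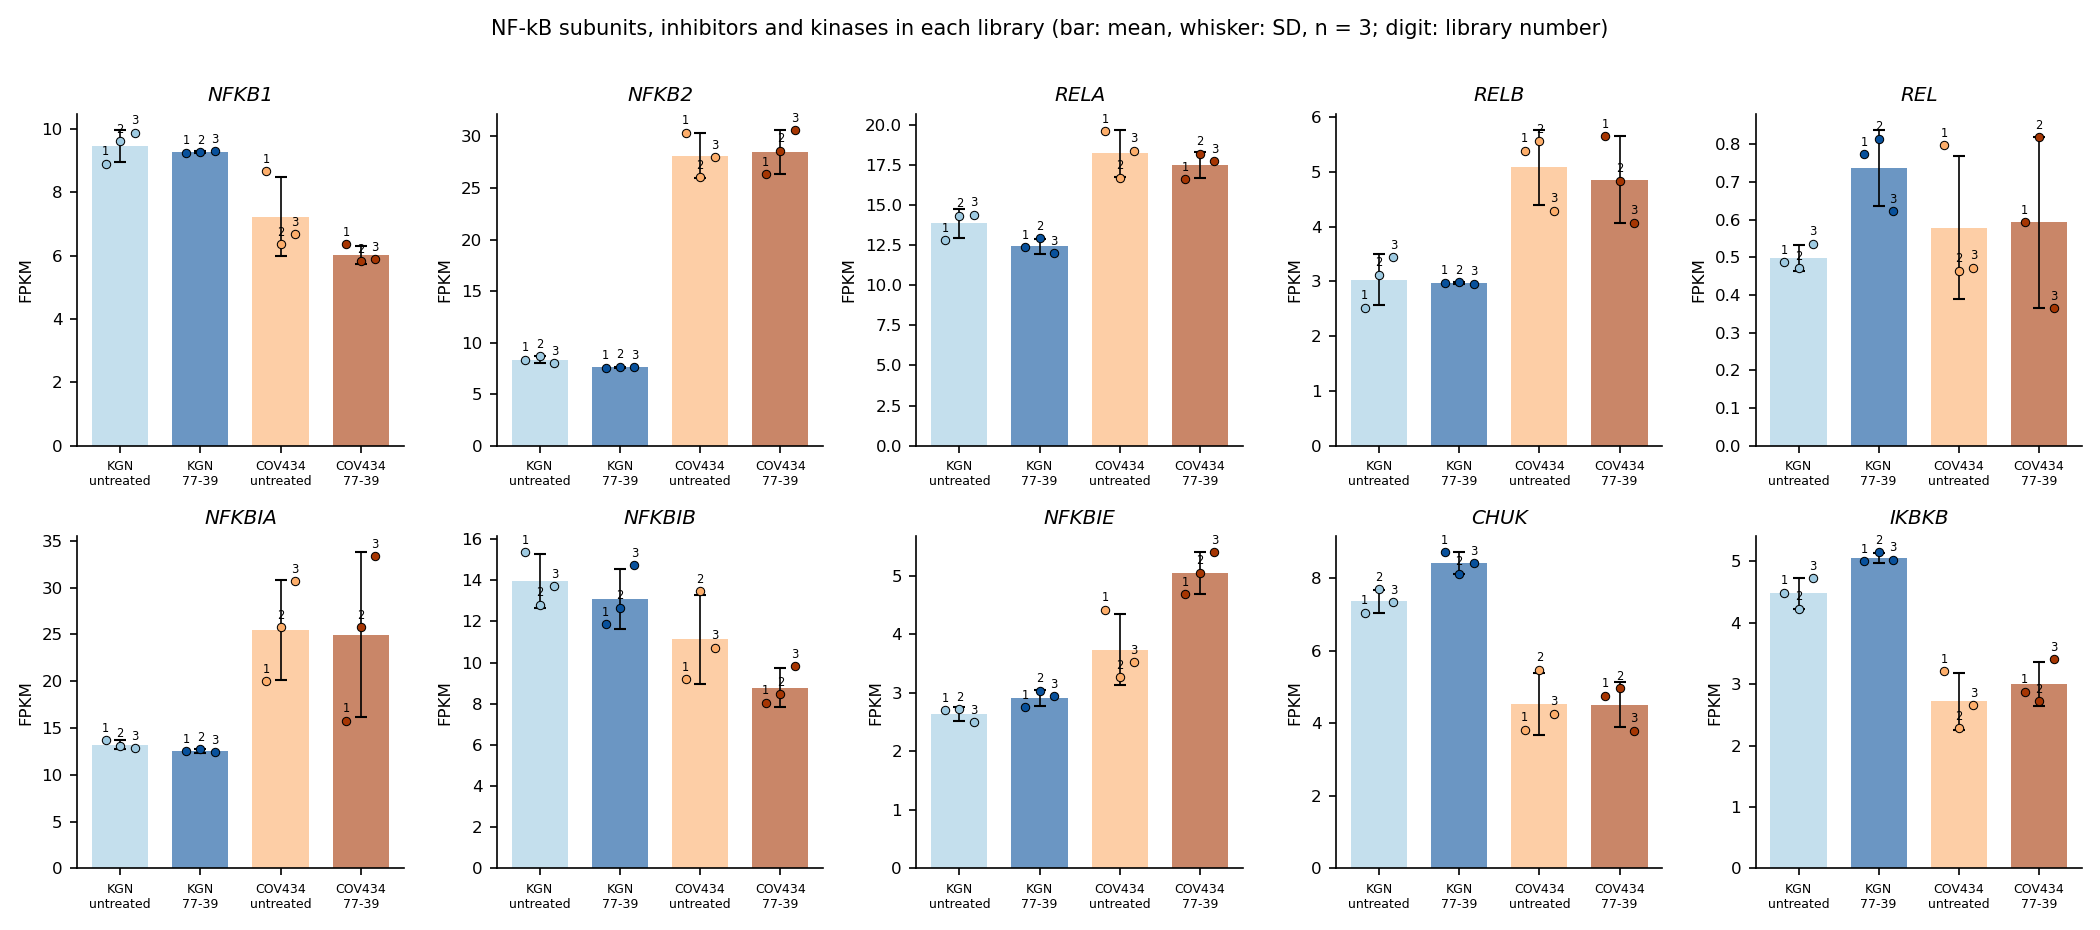
FPKM (y axis) of the 10 genes in the 4 groups (x axis). Bars are means, whiskers SD over 3 libraries and circles single libraries with their number; NFKB2 stood at 26.0 to 30.6 FPKM in the COV434 libraries against 7.58 to 8.72 FPKM in the KGN libraries.

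Among the inhibitors, NFKBIA, which encodes IκBα and is induced by NF-κB itself, was at 13.7, 13.1 and 12.8 FPKM in untreated KGN libraries and at 19.99, 25.8 and 30.7 FPKM in untreated COV434 libraries. All COV434 libraries lay above the KGN libraries, and they were spread far more widely. The difference was 0.88 (SE 0.16, adjusted p = 0.00218) and passed in all 15 alternatives. NFKBIE, which encodes IκBε, was at 2.70, 2.72 and 2.50 FPKM against 4.42, 3.26 and 3.52 FPKM, a difference of 0.37 (SE 0.11, adjusted p = 0.0201). Its groups did not overlap, but the call was lost with voom (adjusted p = 0.157) and without KGN library 1, 2 or 3, with adjusted p of 0.0562, 0.0560 and 0.0768. NFKBIB, which encodes IκBβ, was at 15.4, 12.8 and 13.7 FPKM against 9.19, 13.5 and 10.7 FPKM. COV434 library 2 lay inside the KGN range, and the difference of -0.31 (SE 0.15) missed the threshold (adjusted p = 0.0958, from 0.00986 to 0.258 over the alternatives). It passed with quantile normalization (-0.56, adjusted p = 0.00986), with voom (-0.55, adjusted p = 0.0175) and without COV434 library 2 (-0.45, adjusted p = 0.0155).

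Both kinase genes were lower in COV434. CHUK, which encodes IKKα, was at 7.05, 7.71 and 7.33 FPKM in KGN and 3.82, 5.48 and 4.27 FPKM in COV434, and IKBKB, which encodes IKKβ, was at 4.49, 4.23 and 4.73 FPKM against 3.22, 2.29 and 2.66 FPKM. Neither gene's groups overlapped. The differences were -0.61 for CHUK (SE 0.12, adjusted p = 0.00400) and -0.57 for IKBKB (SE 0.11, adjusted p = 0.00345), and both passed in all 15 alternatives. In FPKM, CHUK was above IKBKB in every library, at 1.12 to 2.39 times its value. FPKM divides by gene length, here 6928 bases for CHUK and 11241 for IKBKB. In recovered reads the order varied, with 439 for CHUK and 599 for IKBKB in untreated COV434 library 1. Untreated COV434 library 2 had 645 and 437. The order of the 2 genes thus rests on the lengths used.

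On the scale of FPKM, which divides by gene length, the subunits took different shares of their summed level in the lines. NFKB2 made up 22.1% to 25.2% of the subunit sum across the 6 KGN libraries and 46.8% to 52.2% across the 6 COV434 libraries. RELA made up 36.9% to 39.7% and 29.9% to 31.8%, and NFKB1 26.5% to 28.6% and 9.99% to 13.4%. RELB stayed at 6.94% to 10.2% and REL at 0.623% to 2.42% in all 12. Thus RELA led in KGN and NFKB2 in COV434, and the ratio of NFKB2 to NFKB1 was 0.810 to 0.936 against 3.51 to 5.20. The 3 inhibitors summed to 0.790 to 0.961 of the subunit sum in KGN and to 0.513 to 0.828 in COV434. Within COV434 this ratio was lowest in library 1 of both groups, at 0.518 untreated and 0.513 treated, against 0.674 to 0.828 in the other 4.

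**Figure D2:**
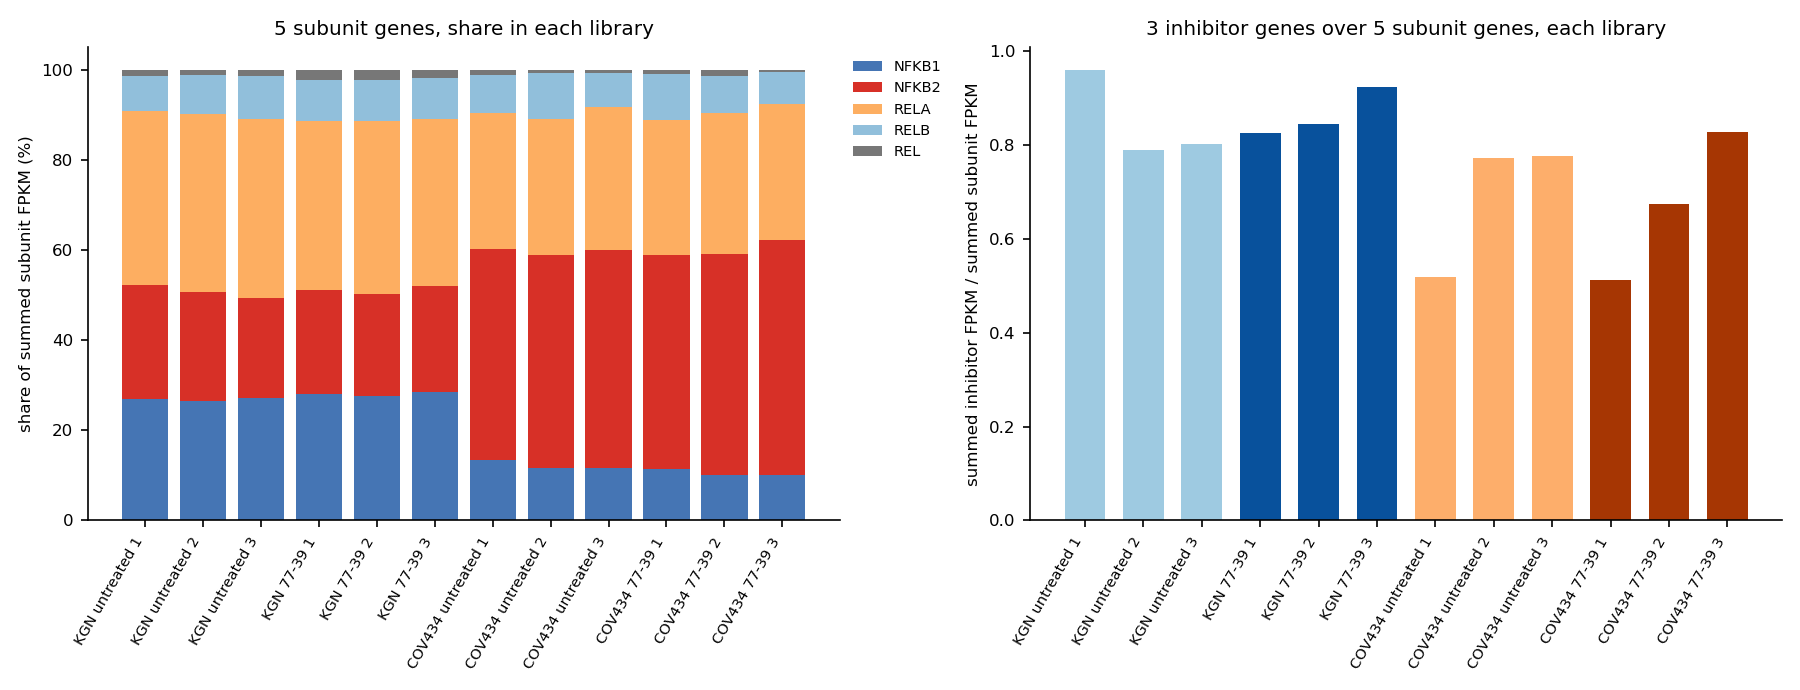
Left, share (%) of each of the 5 subunit genes in the summed subunit FPKM of each of the 12 libraries. Right, summed FPKM of the 3 inhibitor genes divided by that of the subunits, 1 bar per library; the NFKB2 share was 22.1% to 25.2% in KGN and 46.8% to 52.2% in COV434, and the ratio was lowest in both COV434 libraries numbered 1.

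The next question was whether the RNA of these genes differed after 77-39. In the libraries labelled KGN, CHUK rose and no other member of the 9 tested passed an adjusted p of 0.05, against 34% of the 12671 genes tested, 17.6% higher and 16.4% lower. At an unadjusted p under 0.05, 4 of 9 members passed, against 45.3% of genes. In a fit of protein-coding genes only, 1 member had an adjusted p under 0.05, against 45.9% of 10245 genes. The treated and untreated libraries did not overlap for 5 of the 9, NFKB2 and NFKBIA lower and NFKBIE, CHUK and IKBKB higher, against 49.7% of all genes tested. The members' median was -0.03, that of all genes 0.01, and the differences ran from -0.14 to 0.17. SIRT3, whose protein 77-39 inhibits, was at 4.29 ± 0.0675 FPKM untreated and 4.04 ± 0.468 FPKM treated (SD, n = 3, adjusted p = 0.475).

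CHUK was at 7.05, 7.71 and 7.33 FPKM untreated and at 8.72, 8.13 and 8.43 FPKM treated. All 3 treated libraries were above all untreated ones, by 0.17 on the log2 scale (SE 0.05, 95% interval 0.05 to 0.29, adjusted p = 0.0365) or 1.14-fold. The call was kept in 5 of 15 alternatives, with adjusted p from 0.0196 with voom to 0.415 when all 12 libraries shared 1 estimate of the spread. Of the fits without 1 library, only that without untreated library 2 kept it (adjusted p = 0.0473), and the other 5 gave from 0.0637 without treated library 2 to 0.113 without treated library 1. IKBKB was at 4.49, 4.23 and 4.73 FPKM untreated and 5.00, 5.15 and 5.03 FPKM treated. It was likewise higher in every treated library, by 0.14 (SE 0.05), with an adjusted p of 0.0718 that reached 0.0435 with voom and ran up to 0.429.

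Of the subunits, none passed. NFKB2 was at 8.34, 8.72 and 8.0 FPKM untreated and at 7.58, 7.66 and 7.64 FPKM treated, lower in every treated library, with a difference of -0.12 (SE 0.05, adjusted p = 0.0946). RELA was at 12.8, 14.3 and 14.4 FPKM untreated and at 12.4, 12.9 and 12.01 FPKM treated, and its groups overlapped through untreated library 1 alone. Its difference was -0.14 (SE 0.06, adjusted p = 0.09996), and without untreated library 1 it was -0.19 (adjusted p = 0.0277), the only 1 of its 15 alternatives to pass, with adjusted p up to 0.341. NFKB1 and RELB lay within the spread, at 9.47 and 9.27 FPKM and at 3.03 and 2.98 FPKM on average. Their differences were -0.03 (95% interval -0.14 to 0.09) and -0.01 (-0.23 to 0.20). REL was at 0.487, 0.471 and 0.536 FPKM untreated and at 0.774, 0.814 and 0.622 FPKM treated. Every treated library was higher in FPKM, on 106 to 139 recovered reads untreated and 137 to 189 treated, before scaling for library size. The difference was 0.21 (SE 0.08, adjusted p = 0.129 at the lower minimum in limma). Since 1 is added to each value, that scale understates the change of so low a gene, whose means stood in a ratio of 1.48.

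None of the inhibitor genes passed in KGN. NFKBIA was at 13.7, 13.1 and 12.8 FPKM untreated and 12.5, 12.7 and 12.4 FPKM treated, a narrow gap of -0.07 with every treated library lower (95% interval -0.17 to 0.03, adjusted p = 0.259). NFKBIE, at 2.64 and 2.91 FPKM on average, was higher in every treated library by 0.10 (-0.04 to 0.25, adjusted p = 0.232). NFKBIB overlapped, at 12.8 to 15.4 FPKM untreated and 11.9 to 14.7 FPKM treated, with a difference of -0.09 (-0.31 to 0.13). For the 9 members fitted at the higher minimum, the intervals reached no lower than -0.31 and no higher than 0.29.

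In the libraries labelled COV434, 0 of 9 members passed an adjusted p of 0.05 in limma, against 0.0415% of the 12060 genes tested, or 5 genes. At an unadjusted p under 0.05 the member NFKBIE alone passed, against 8% of genes, and voom on the recovered reads called 0 members too. With library numbers as a replicate block, 0 members passed, against 0.721% of genes. No label pairs the libraries, and the numbers were taken as pairs in this line because values of these same libraries correlated. Partner below means only the untreated library of the same number. Groups did not overlap for 1 of 9 members, against 14.4% of all genes, and the members' median of -0.05 lay near that of all genes, -0.02. Library 1 of both groups stood apart here, and no fit that left out a library called a member.

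NFKBIE was at 4.42, 3.26 and 3.52 FPKM untreated and at 4.68, 5.05 and 5.39 FPKM treated. All treated libraries were higher, by 0.36 (SE 0.15, 95% interval 0.01 to 0.71) or 1.35-fold, with an adjusted p of 0.602 in limma, from 0.0787 to 1 over the alternatives and 0.350 with the replicate block. Without untreated library 1 the difference was 0.46 and without treated library 1 it was 0.40. NFKBIA was at 19.99, 25.8 and 30.7 FPKM untreated and 15.8, 25.8 and 33.3 FPKM treated. Libraries of the same number lay close together and the groups overlapped across their whole range, so the difference of -0.07 had a 95% interval of -0.70 to 0.56. It was 0.22 without treated library 1, in which mitochondrial genes took the largest share of reads. NFKBIB was at 9.19, 13.5 and 10.7 FPKM untreated and at 8.05, 8.47 and 9.84 FPKM treated, with a difference of -0.30 (-0.69 to 0.09, adjusted p = 0.766). Each treated library was below the untreated one of the same number, and the adjusted p with the replicate block was 0.412.

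NFKB1 was at 8.66, 6.36 and 6.68 FPKM untreated and 6.36, 5.82 and 5.88 FPKM treated. Untreated library 1 was high, the lowest untreated library lay just under the highest treated one, and the difference was -0.22 (-0.57 to 0.13, adjusted p = 0.830). Here too each treated library was below its partner, with an adjusted p of 0.509 with the block. NFKB2 was at 30.4, 26.0 and 28.0 FPKM untreated and 26.3, 28.6 and 30.6 FPKM treated, a difference of 0.02 (-0.31 to 0.35). RELA, RELB and REL likewise overlapped, with differences of -0.05 (-0.37 to 0.26), -0.06 (-0.43 to 0.32) and 0.01 (-0.37 to 0.39). CHUK averaged 4.52 and 4.51 FPKM, a difference of 0.00 (-0.39 to 0.39), and IKBKB 2.72 and 3.00 FPKM, a difference of 0.11 (-0.26 to 0.47). Intervals in COV434 were wider than in KGN for each of the 10 members.

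**Figure D3:**
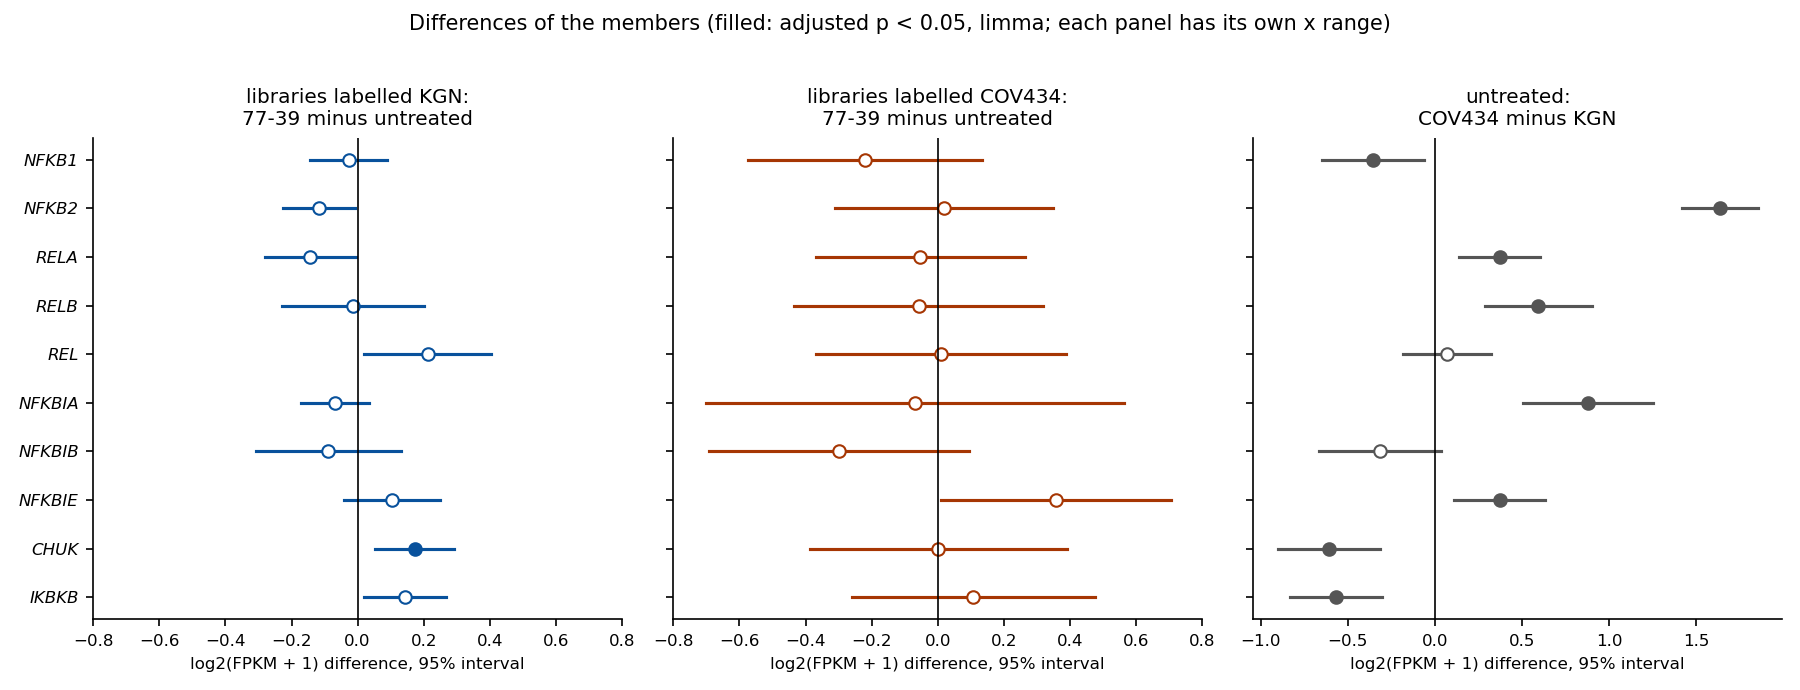
Differences on the log2(FPKM + 1) scale (x axis, with 95% intervals) of the 10 genes (y axis) after 77-39 in each line and between the untreated lines; filled circles had an adjusted p under 0.05 in limma. CHUK is the only filled circle for 77-39 in KGN, none is filled in COV434, and 8 are filled between the lines.

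Whether the response to 77-39 differed between the lines was tested as an interaction over all 12 libraries, which shares its libraries with the comparisons above. In limma 0 of 9 members passed, against 3.6% of the 13127 genes tested. No member passed an unadjusted p of 0.05, and voom called 0 members as well. The smallest adjusted p was that of NFKBIE, at 0.369 (0.0835 to 0.580 over the alternatives), with a difference of -0.25 in log2 units, KGN minus COV434 (95% interval -0.56 to 0.05). For CHUK, which rose in KGN, the difference was 0.17 (-0.19 to 0.54, adjusted p = 0.660), so the responses of CHUK in the 2 lines were not shown to differ.

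The genes that carry signals to the kinases and switch them off were taken from a list of 68 other pathway genes. In the libraries labelled KGN, 47 were tested, 13 were higher and 7 lower after 77-39, or 42.6% against 34% of all genes. The median was 0.04. In the fit of protein-coding genes only, 14 rose and 8 fell, where 45.9% of 10245 genes were called. The counts by role that follow are from the fit of all genes. Of 15 receptors and adaptors, 8 rose and 2 fell, or 66.7%. Among them IRAK1, a kinase below the IL-1 receptor, was at 60.4, 61.4 and 59.9 FPKM untreated and 75.1, 73.6 and 76.5 FPKM treated (difference 0.31, SE 0.04, adjusted p = 0.00228). CD40, a TNF receptor family member, rose from 6.62 to 8.43 FPKM (0.31, adjusted p = 0.00825), and BCL10, an adaptor of the CARD complexes, rose from 2.20 to 3.02 FPKM (0.33, adjusted p = 0.0110). TRAF2, an adaptor of TNF receptors, fell from 6.88 to 5.03 FPKM (-0.39, adjusted p = 0.00576). For each of these 4 the treated and untreated libraries did not overlap.

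Next to CHUK and IKBKB in the pathway stand 8 tested kinases and cofactors, of which 2 rose and 2 fell, or 50% against 34% of all genes. MAP3K7, which encodes the TAK1 kinase that activates IKKβ, was at 32.6, 31.9 and 35.2 FPKM untreated and 27.8, 28.6 and 28.4 FPKM treated, lower in every treated library (-0.23, SE 0.05, adjusted p = 0.0134). Of its cofactors, TAB1 fell from 11.7 to 8.61 FPKM (-0.40, adjusted p = 0.00309) and TAB3 rose from 4.93 to 6.27 FPKM (0.29, adjusted p = 0.00860). TBK1, an IKK-related kinase, rose from 7.13 to 9.34 FPKM (0.35, adjusted p = 0.0120). IKBKG, the NEMO scaffold that binds both kinases, was at 2.98, 4.25 and 5.17 FPKM untreated and 2.31, 2.77 and 2.98 FPKM treated, and a wide spread among untreated libraries went with an adjusted p of 0.0647 (difference -0.46, SE 0.16). MAP3K14, the NIK kinase that acts on IKKα, was at 0.904 and 1.01 FPKM on average, with an adjusted p of 0.676 at the lower minimum.

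Of 9 tested ubiquitin ligases and proteolysis genes, 2 rose and 1 fell (33.3%), of 8 negative regulators 1 rose and 1 fell (25%), of 3 atypical IκB proteins 1 fell (33.3%), and of 4 coactivators none passed, against 34% of all genes. The atypical IκB protein was BCL3, which binds p50 and p52 in the nucleus. It was at 7.55, 8.68 and 8.78 FPKM untreated and 5.71, 5.23 and 6.14 FPKM treated, lower in every treated library (-0.48, SE 0.08, adjusted p = 0.00402) and in every alternative. TNFAIP3, the A20 deubiquitinase that ends signaling, was low in KGN, at 0.353 and 0.494 FPKM on average, with an adjusted p of 0.502 at the lower minimum. The number of pathway genes called without 1 library was 10 to 15, and it was 10 without treated library 1, 11 without treated library 2 and 13 without any 1 of the 3 untreated libraries, against 20 with all. With 1 spread for all 12 libraries it was 3.

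In the libraries labelled COV434, 0 of 59 pathway genes passed in limma, against 0.0415% of all genes. At an unadjusted p under 0.05 there were 5, against 8%, and with voom or the replicate block, which called 0.721% of all genes, there were 0. TNFAIP3 was at 14.5, 11.1 and 13.3 FPKM untreated and at 6.70, 6.45 and 9.05 FPKM treated. Every treated library was lower, with a difference of -0.74 (SE 0.17, adjusted p = 0.222, from 0.0161 to 0.785 over the alternatives, and 0.0861 with the replicate block). BCL3 was at 10.9 and 7.47 FPKM on average, lower in every treated library (-0.49, adjusted p = 0.379, from 0.0319 to 1). MAP3K14 was higher in every treated library, at 3.47 and 4.52 FPKM on average (0.32, adjusted p = 0.688), and MAP3K7 and IKBKG overlapped, with adjusted p of 0.988 and 0.986.

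**Figure D4:**
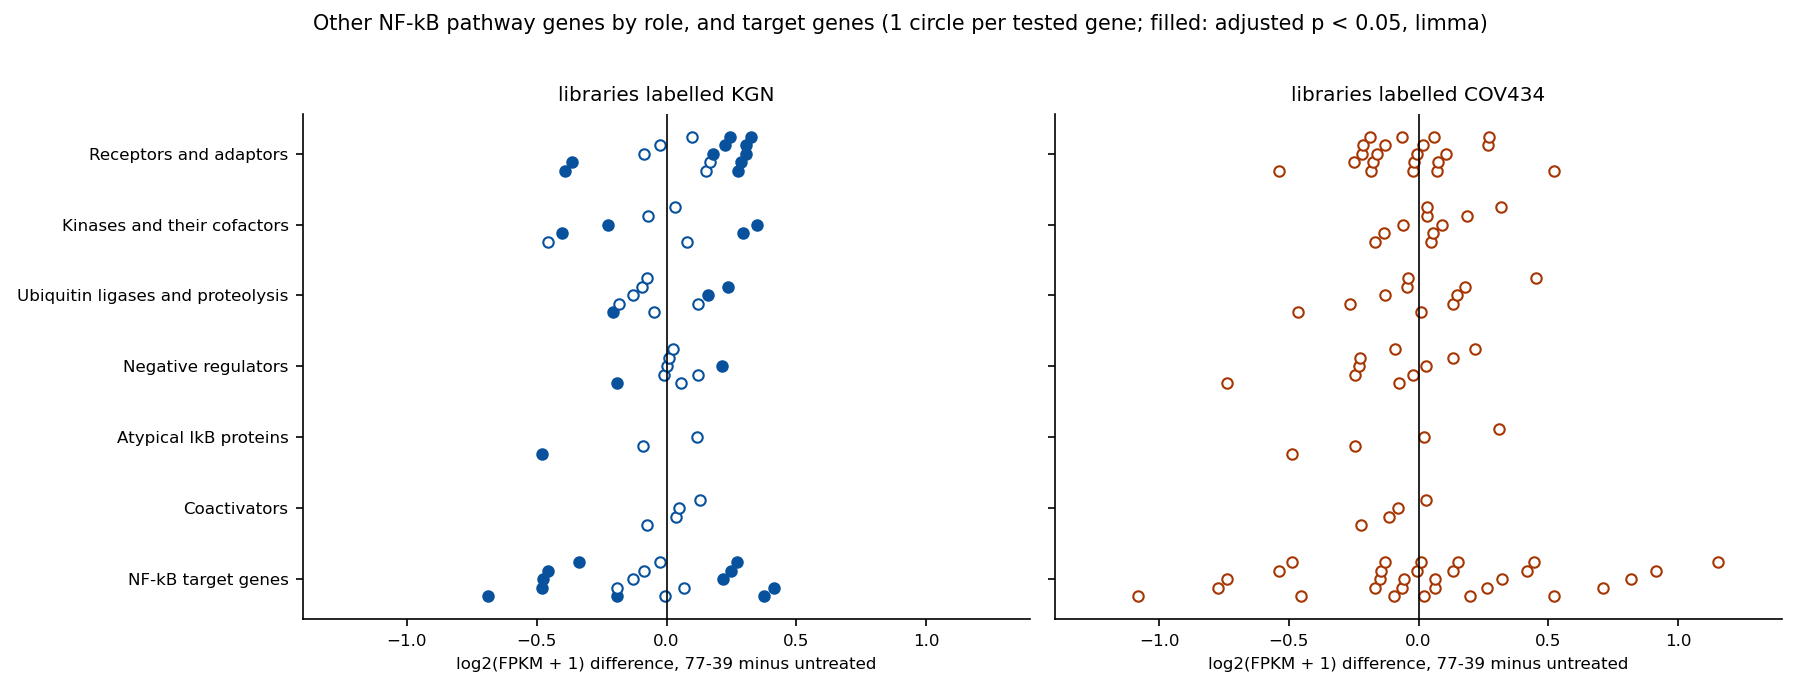
Difference on the log2(FPKM + 1) scale after 77-39 (x axis) of each tested pathway gene, by role, and of each tested target gene (y axis) in both lines; 6 genes stand in both lists. Filled circles had an adjusted p under 0.05 in limma, 20 pathway and 11 target genes in KGN and none in COV434.

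Between the untreated lines, 44 of 59 pathway genes differed, 28 higher and 16 lower in COV434, or 74.6% against 69% of all genes. The minimum is a mean over both lines, so a gene near 0 in 1 line could be tested through the other line alone. In the fits within a line, 47 pathway genes reached it in KGN and 59 in COV434. Of the genes next to the members, some differed and some did not pass. MAP3K7 was at 33.3 FPKM in KGN and 3.52 FPKM in COV434 (-2.93, adjusted p = 1.01e-06), MAP3K14 at 0.904 and 3.47 FPKM (1.22, adjusted p = 0.000192) and TNFAIP3 at 0.353 and 13.0 FPKM (3.36, adjusted p = 7.99e-07). BCL3 was at 8.34 and 10.9 FPKM (0.35, adjusted p = 0.0394) and passed in 7 of 15 alternatives. IKBKG, at 4.13 and 3.43 FPKM, and TBK1, at 7.13 and 5.57 FPKM, overlapped and missed the threshold (-0.19, adjusted p = 0.328, and -0.35, adjusted p = 0.206). CD40, at 6.62 FPKM in KGN, was listed at 0 in every COV434 library.

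Beside the members, 54 known NF-κB target genes were listed, of which TNFAIP3, TNIP1, BIRC3, TRAF1, BCL3 and NFKBIZ are also pathway genes. Like the pathway list, this list was chosen with earlier results of these data known. How far its genes follow NF-κB activity in these cells was not tested. In the libraries labelled KGN, 17 passed the minimum, and 5 rose and 6 fell, or 64.7% against 34% of genes, with a median of -0.09. In the fit of protein-coding genes only, 5 rose and 7 fell, against 45.9% of 10245 genes. PTGS2, the inducible cyclooxygenase, was at 2.96, 3.28 and 3.20 FPKM untreated and 4.73, 4.27 and 4.57 FPKM treated. It rose by 0.41 (SE 0.06, adjusted p = 0.00292), in every alternative. RIPK2, the kinase of NOD receptors, rose from 8.48 to 11.3 FPKM (0.38, adjusted p = 0.00643). PSMB9, an immunoproteasome subunit, was at 6.32, 6.15 and 5.76 FPKM untreated and 3.55, 2.81 and 3.89 FPKM treated, and fell in every treated library (-0.69, SE 0.10, adjusted p = 0.00267). JUNB, an AP-1 subunit, fell from 19.3 to 13.8 FPKM (-0.46, adjusted p = 0.00347), and BCL3 fell as given above. XIAP, an inhibitor of caspases, rose from 6.75 to 8.02 FPKM (0.22, SE 0.05, adjusted p = 0.0136), and its call ended without untreated library 3, treated library 1 or treated library 2 and with 1 fit of all 12 libraries (adjusted p = 0.403). The number called without 1 library was 6 to 9, with 6 without untreated library 3 and 7 without treated library 1, 2 or 3, against 11 with all. It was 3 with 1 fit of all 12 libraries and 6 with no minimum. The PTPRC level given above also moved with treatment in this line.

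In the libraries labelled COV434, 0 of 30 target genes passed in limma, against 0.0415% of all genes. At an unadjusted p under 0.05 there were 10, 4 higher and 6 lower, against 8% of all genes, and their median was 0.02. Voom called 1, PTGS2. With the replicate block, whose pairs were taken from these same data, 4 passed, against 0.721% of genes. These 4 are named after their values were seen. CCL5, a chemokine, was at 22.3, 46.8 and 36.4 FPKM untreated and 57.7, 93.8 and 81.6 FPKM treated, and PSMB9 at 4.66, 10.1 and 6.67 FPKM and 10.6, 16.8 and 14.7 FPKM. For both, each treated library was above its untreated partner and above all untreated libraries. The differences were 1.16 for CCL5 (adjusted p = 0.258, 0.0258 with the block) and 0.92 for PSMB9 (adjusted p = 0.345, 0.0475 with the block). PTGS2 went down, from 12.7, 14 and 15 FPKM to 6.46, 5.48 and 6.198 FPKM, a difference of -1.08 (SE 0.14, adjusted p = 0.0660, 0.0369 with the block), and JUNB from 57.2, 69.5 and 65.8 FPKM to 34.1, 38.9 and 38.4 FPKM, a difference of -0.77 (SE 0.15, adjusted p = 0.136, 0.0390 with the block). Over all alternatives the adjusted p ran from 0.0169 to 0.735 for CCL5, 0.0419 to 0.892 for PSMB9, 0.000167 to 0.444 for PTGS2 and 0.00174 to 0.626 for JUNB.

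The cytokine genes IL6, IL1B and CXCL2, which the study measured by qPCR, were low in the sequencing. IL6 and CXCL2 had 0 reads in all 6 libraries labelled KGN, and IL1B had at most 6 in any of them. In COV434, IL6 was at 0.875, 1.99 and 2.37 FPKM untreated and 2.26, 3.68 and 4.43 FPKM treated, where each treated library was above its untreated partner but the groups overlapped (0.71, adjusted p = 0.523, 0.0978 with the block). IL1B was at 0.390, 0.646 and 0.541 FPKM and 1.32, 1.04 and 1.41 FPKM, all treated libraries being higher (0.56, adjusted p = 0.362 at the lower minimum), on 20 to 78 reads. CXCL2 overlapped, at 2.04 and 2.12 FPKM on average (adjusted p = 0.99967). ICAM1, an adhesion molecule, was at 2.58 and 3.04 FPKM in COV434 (adjusted p = 0.903) and at most 0.0728 FPKM in KGN. CXCL8 had 0 to 19 reads in any of the 12 libraries, with overlap in both lines.

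**Figure D5:**
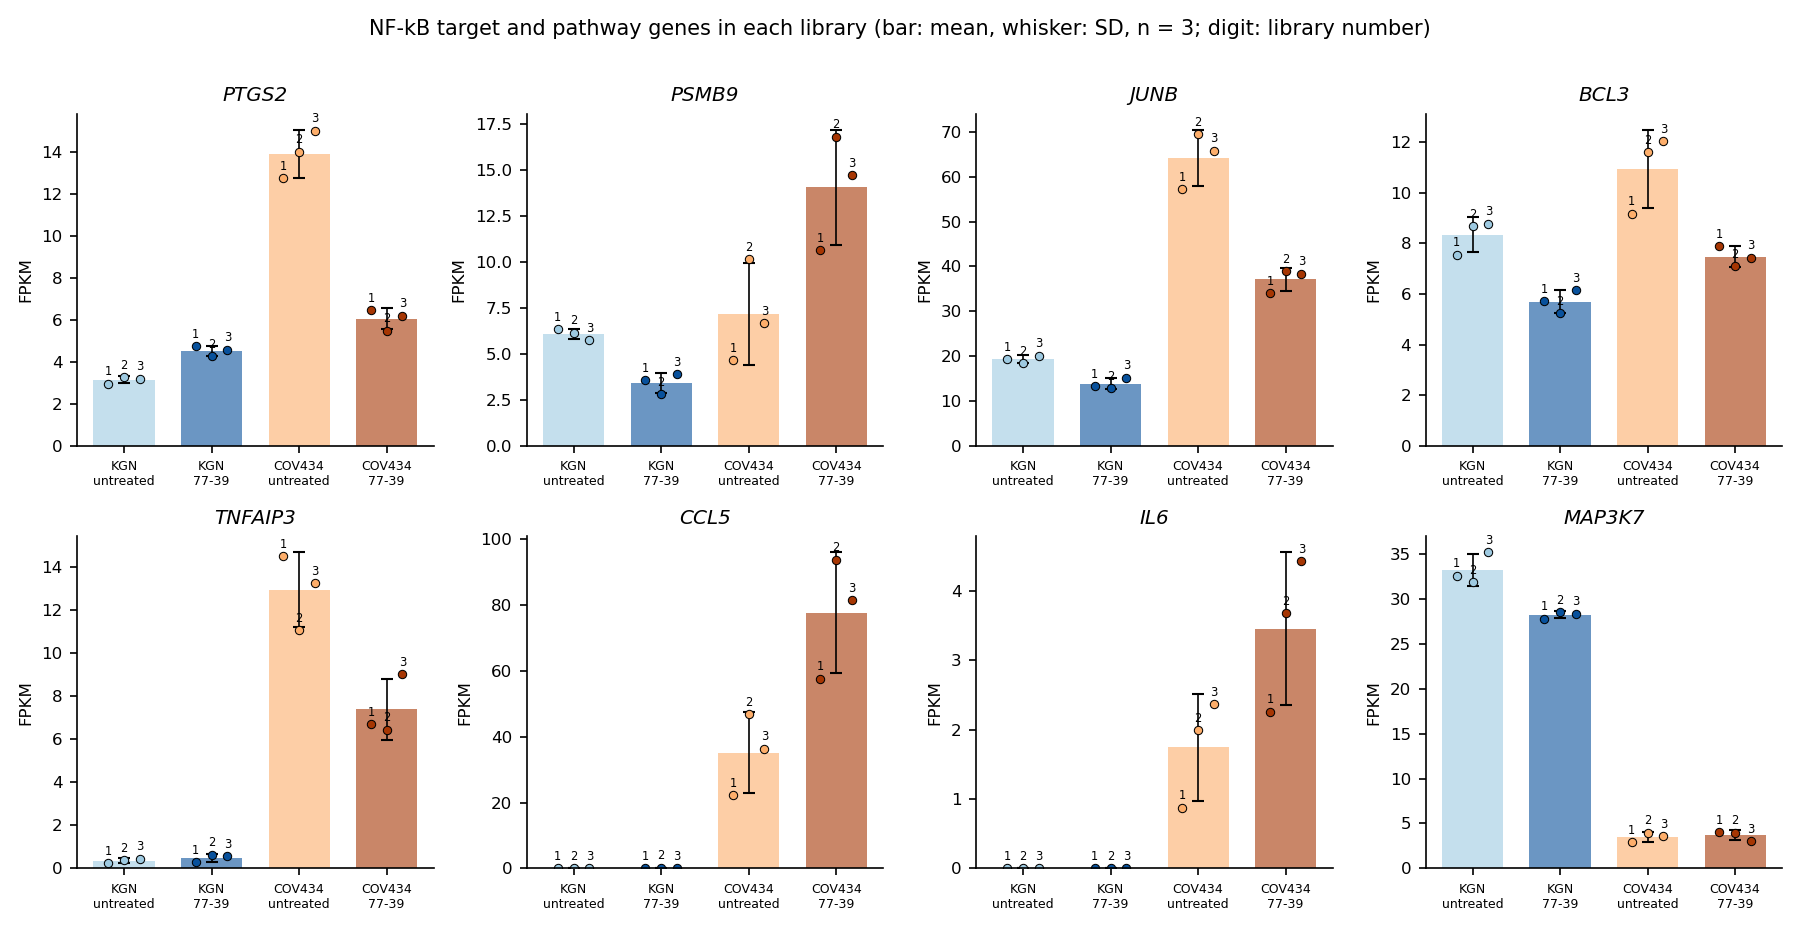
FPKM (y axis) of 8 target and pathway genes in the 4 groups (x axis), drawn as bars of the mean with SD over 3 libraries and circles for single libraries with their number. PTGS2 was higher in treated than untreated KGN libraries, at 4.27 to 4.73 against 2.96 to 3.28 FPKM, and lower in treated COV434 libraries, at 5.48 to 6.46 against 12.7 to 15 FPKM.

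Between the untreated lines, 30 of 31 target genes tested differed, 25 higher in COV434 and 5 higher in KGN, or 96.8% against 69% of all genes. The median was 1.55, against 0.02 over all genes and 0.37 over the members. The minimum is a mean over both lines, so a gene low in either line could be tested through the other line alone. The direction of such a gene was fixed by the minimum. In the fits within a line, 17 target genes reached it in KGN and 30 in COV434. The counts by direction and the median thus partly reflect which genes could be tested. CCL5 was at 0.0350 FPKM on average in KGN, on at most 2 reads per library, and at 35.2 FPKM in COV434. PTGS2 was at 3.15 and 13.9 FPKM (1.84, adjusted p = 3.25e-06) and JUNB at 19.3 and 64.2 FPKM (1.68, adjusted p = 1.13e-05).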

How the data were processed

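Total RNA of 12 libraries, 3 per line and treatment, was extracted with TRIzol and sequenced on an Illumina instrument. The authors deposited 1 table of FPKM, which scales fragments by gene length and library size. The submitters' processing notes name HISAT2 2.0.5 and mouse builds, and the extraction label names retinas, which do not go with the human table. The coordinates of 58690 of its 58735 genes matched GENCODE 29 on GRCh38. The counting tool is not given in the sources used here. The kit named in the labels, TruSeq RNA, does not mark strand, so reads shared with genes on the opposite strand (SIRT2 for NFKBIB, for example) cannot be told apart. Whole reads were recovered from FPKM and gene length for 100% of values, within 0.05. The library factor behind FPKM was 1.07 to 1.10 times the recovered reads in KGN and 0.911 to 0.978 times in COV434, so FPKM and reads scale the lines differently.

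Values were tested as log2(FPKM + 1) with limma 3.58.1 (lmFit, and eBayes with a trend) in R 4.3.3, two-sided, for genes averaging 1 FPKM or more in the libraries compared, with Benjamini-Hochberg adjustment over all of them and a threshold of 0.05. Each line was fitted alone, the untreated lines were fitted together, and the interaction used all 12 libraries. Tables were handled with Python 3.11.15. Alternatives were a pseudocount of 0.1, a minimum of 0.1 FPKM or none, median-ratio or quantile scaling, library number as a block, voom on the recovered reads, protein-coding genes only, 1 fit of all 12 libraries, and each library left out in turn. The fit was also run on simulated data, and the outcome is not given here.

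Labels give library numbers 1 to 3 in each group. In COV434, deviations from the group means correlated between libraries of the same number (0.400, 0.474 and 0.166 over 12060 genes), so the numbers were taken as pairs, although no label says what they share. In KGN they did not (-0.016, -0.018 and -0.019). The members, the pathway and target lists and the markers were chosen with earlier results of these data known. The values of 1 marker are not reported here. Named genes are the 10 members, 5 fixed genes of the pathway list and up to 8 more with the smallest p among those that passed per line, 5 fixed genes of the target list and up to 6 more by the same rule, and SIRT3.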

Additional observations from a re-analysis of the deposited data

Results flagged for a closer look

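The response to 77-39 differed between the lines for 4 genes of the pathway and target lists, by the interaction of line and treatment in limma over all 12 libraries, given as the log2 difference in KGN minus that in COV434. No member was among them. They were 2 of 59 pathway genes (3.39%) and 3 of 32 target genes (9.38%), with TNFAIP3 in both lists, against 3.6% of all genes. RBCK1, a subunit of the linear ubiquitin chain ligase, is named here after its values were seen.

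PTGS2 differed by 1.49 (SE 0.12, adjusted p = 0.00035). It was higher in all 3 treated libraries labelled KGN and lower in all 3 labelled COV434, and it passed in all 20 alternatives, with adjusted p from 0.00015 to 0.00701. PSMB9 differed by -1.60 (SE 0.32, adjusted p = 0.0225), lower in all 3 treated KGN libraries and higher in all 3 treated COV434 libraries, and passed in 12 of 20 alternatives, with adjusted p up to 0.0740.

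TNFAIP3 differed by 0.88 (SE 0.20, adjusted p = 0.0404) and passed in 7 of 20 alternatives, with adjusted p from 0.0204 to 0.217. Its level in KGN was 0.353 FPKM untreated and 0.494 FPKM treated, on 22 to 57 reads per library. The difference ran from 0.77 to 1.24 over the alternatives, and with voom the call was lost (adjusted p = 0.217). RBCK1 differed by -0.53 (SE 0.12, adjusted p = 0.0394), at 20.004 and 18.96 FPKM in KGN and 29.992 and 41.32 FPKM in COV434, where all 3 treated libraries were higher, and passed in 9 of 20 alternatives, with adjusted p up to 0.123. Its call was lost with the replicate block (adjusted p = 0.0653) and with voom (adjusted p = 0.0712). With the block, CCL5 (-1.12, adjusted p = 0.0130), IL6 (-0.71, adjusted p = 0.0279) and LCN2 (-0.79, adjusted p = 0.0278) passed as well, although the numbers did not pair the KGN libraries. Without the block their adjusted p were 0.0952, 0.246 and 0.405, and with voom 0.888, 0.809 and 0.999. Per KGN library, CCL5 had 0 to 4 reads, IL6 0 and LCN2 0 to 1. The differences of these genes therefore hold almost only the COV434 response. Of the 12 fits without 1 library, PTGS2 passed in 12, PSMB9 in 5, TNFAIP3 in 3 and RBCK1 in 3. TNFAIP3 passed without COV434 untreated library 2, treated library 1 or treated library 3, and RBCK1 without COV434 untreated library 1, untreated library 2 or treated library 1.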

How the results depend on the processing

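The counts of called genes for 77-39 in KGN depended on the setting. The alternatives for the pathway and target counts were added after seeing the data. Called members went from 1 to 0 with a minimum of 0.1 FPKM, with no minimum, with quantile normalization, with library number as a replicate block and with 1 fit of all 12 libraries, to 2 with voom, and to 0 to 1 without 1 library. Called pathway genes went from 20 to 12 with no minimum or with the replicate block, to 3 with 1 fit of all 12 libraries, and to 10 to 15 without 1 library. Called target genes went from 11 to 6 with no minimum, to 7 with the replicate block, to 3 with 1 fit of all 12 libraries, and to 6 to 9 without 1 library. Over all genes, 3277 of 12671 were called with the block, 2949 with no minimum and 1237 with 1 fit of all 12 libraries, against 4307. In KGN the numbers did not pair the libraries, so the block is a setting and not the design.

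In COV434, members stayed at 0 in all 15 alternatives. Called target genes went from 0 to 4 with the replicate block, to 1 with voom or with protein-coding genes only and to 8 with 1 fit of all 12 libraries, where called pathway genes went from 0 to 4. Over all genes the count went from 5 to 87, 25, 37 and 488 in those 4 settings, to 3 with a pseudocount or minimum of 0.1, to 1 with no minimum, and to 1 to 7 without 1 library. Between the untreated lines 6 to 8 members were called in the 15 alternatives, 6 with the replicate block. For the interaction, called pathway genes went from 2 to 1 with a pseudocount or minimum of 0.1, no minimum or the replicate block, to 0 with voom, and to 0 to 4 without 1 library, the highest without COV434 treated library 1. Called target genes went from 3 to 1 with no minimum, to 6 with the replicate block and to 1 to 5 without 1 library, the highest again without that library. Over all genes the interaction called 126 to 976 genes without 1 library, against 472, 321 with a pseudocount of 0.1 and 264 with voom.

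Signs turned only for members near 0 that no setting called. Without 1 library the difference ran in KGN from -0.0662 to 0.0017 for NFKB1 and -0.1077 to 0.0605 for RELB, in COV434 from -0.0327 to 0.0745 for NFKB2, -0.1541 to 0.0419 for RELB, -0.30 to 0.22 for NFKBIA and -0.0901 to 0.1225 for CHUK, and in the interaction from -0.0557 to 0.1403 for RELB, -0.28 to 0.23 for NFKBIA and -0.0571 to 0.1224 for IKBKB. The interaction of NFKBIA was also -2e-04 with a pseudocount of 0.1, -0.0214 with quantile normalization and -0.0095 with voom. The cause of these differences was not tested, apart from the fewer libraries or other genes tested that the settings themselves bring. At 86 to 189 reads, REL is the member whose values counting error limits most, and only 2 settings could fit it.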
